A study of Mus musculus with 6 samples.

Results

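The 10 genes that mark inhibitory interneurons of the cerebral cortex and are described here were Sst, Pvalb, Vip, Npy, Cck, Tac2, Crh, Cort, Reln and Calb2, measured in frontal cortex. They were chosen by name as 10 of the 33000 genes in the count table, each symbol matched 1 row, and all 10 passed the low-count filter. TruSeq mRNA libraries of homozygous GFAP-IL6 mice (n = 3) were compared with those of wild-type mice (WT, n = 3), with 1 library a mouse, all of strain C57BL/6 and 3 months of age. The GFAP-IL6 transgene expresses the cytokine IL6 under the Gfap promoter, which is active in astrocytes, and the WT mice carry no transgene. In the study these libraries were the standard against which its own 3’Pool-seq protocol was judged.

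Cortical interneurons release GABA and restrain the excitatory neurons around them. They fall into classes that are recognised by a neuropeptide or a calcium-binding protein. Cells with somatostatin (Sst) contact dendrites, cells with parvalbumin (Pvalb) contact cell bodies and fire fast, and cells with vasoactive intestinal peptide (Vip) mostly inhibit other interneurons. The peptides are cut from longer precursors, stored in dense-core granules and act on G protein-coupled receptors, whereas reelin is a large secreted protein that binds lipoprotein receptors.

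None of the 10 genes passed an adjusted p of 0.05 by edgeR, where 2.86% of all 15341 genes tested did, 2.65% higher and 0.209% lower in GFAP-IL6. The level was nonetheless lower on average in GFAP-IL6 for 8 of the 10 genes. Sst, Pvalb, Vip, Cck and Crh had an unadjusted p under 0.05 and a lower level, that is 5 of 10, beside 9.37% of all genes tested. Without WT replicate 2 there were 3 such genes (Sst, Pvalb and Vip, beside 5.96% of all genes), without GFAP-IL6 replicate 3 also 3 (Sst, Pvalb and Crh, beside 4.91%), and without GFAP-IL6 replicate 1 only Sst (beside 5.7%). Sst was the nearest to the threshold, at 161 ± 6.31 CPM in WT and 128 ± 11.9 CPM in GFAP-IL6 (counts per 1 M counts of a library, scaled by TMM, mean and SD of 3 mice), and DESeq2 placed it past the threshold. The median log2 fold change over the 10 genes was -0.15, beside -0.0038 over all genes tested, and it was -0.083 without WT replicate 2 and -0.24 without WT replicate 3. Since whole tissue was sequenced, fewer cells of a class and less RNA per cell cannot be told apart.

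Total counts were 11.6 to 16.9 M in WT and 7.56 to 11.1 M in GFAP-IL6. The two-sided exact permutation test of the totals gave p = 0.1, which is the lowest value that 3 against 3 libraries allow. Counts of Il6 were 0 to 2 in WT and 10 to 24 in GFAP-IL6. Gfap averaged 94.5 ± 24.8 CPM in WT and 678 ± 178 CPM in GFAP-IL6 (SD of 3 mice), so that both genes followed the labels. Markers of neighbouring structures stood out in single WT libraries. The summed level of 8 striatal genes was 388 CPM in WT replicate 2, against 212 to 277 CPM in the other libraries. That of 5 choroid plexus genes was 610 CPM in WT replicate 3, against 4.18 to 59.2 CPM. WT replicate 2 also had the highest level of the WT libraries for 9 of the 10 interneuron genes, all but Reln. The part of these structures in the results was not tested, and the estimate of each of the 10 genes without WT replicate 2 is given with its values. Slc17a7, the vesicular glutamate transporter of cortical excitatory neurons, lay between 1097 CPM in WT replicate 2 and 1354 CPM in WT replicate 1. Its presence in all libraries does not show how much of other structures each one held.

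The somatostatin and cortistatin precursors end in closely related peptides, and they are shown here because the estimates of the 2 genes had opposite signs. The stretches below are the best matching windows of 42 coding bases (14 codons) in GENCODE, both exonic and on the minus strand of GRCm38. The Sst window lies at chr16:23889735-23889776 and the Cort window at chr4:149125273-149125314. Capitals mark the 32 bases (76.2%) that are identical between them, of which 21 form 1 unbroken run.
Sst: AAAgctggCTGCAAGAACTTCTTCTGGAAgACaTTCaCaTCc
Cort: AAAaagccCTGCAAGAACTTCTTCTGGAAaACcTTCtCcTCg

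Several neuropeptide genes are known to respond to cAMP through a promoter element that binds CREB. Promoter windows from RefSeq (GRCm38, 250 bases before to 50 bases after a transcription start) were matched for 8 of the 10 genes, and searched on both strands for the full element TGACGTCA and its shorter core TGACG. Crh and Calb2 had no window and were not searched. The full element contains the core on each strand. The 80 bases before the start are shown for the 4 genes with a match, 5′ to 3′ along the gene, with the match in capitals. They lie at chr16:23890845-23890924 (minus strand) for Sst, chr9:121495695-121495774 (minus strand) for Cck, chr10:5639138-5639217 (plus strand) for Vip and chr4:149126764-149126843 (minus strand) for Cort. In GENCODE the Sst gene begins further upstream, at 23890958, so that its stretch before the RefSeq start lies inside the GENCODE gene.
Sst: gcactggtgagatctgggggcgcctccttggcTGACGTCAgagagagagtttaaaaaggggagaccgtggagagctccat
Cck: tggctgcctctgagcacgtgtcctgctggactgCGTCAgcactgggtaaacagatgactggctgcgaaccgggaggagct
Vip: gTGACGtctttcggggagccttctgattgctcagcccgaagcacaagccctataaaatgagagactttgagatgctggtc
Cort: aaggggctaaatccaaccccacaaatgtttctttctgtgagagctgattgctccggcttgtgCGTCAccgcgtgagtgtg
Only the Sst window of these 8 genes held the full element, 48 bases before the RefSeq start, and 1.79% of all 32851 windows held it. The core was present in 20.8% of all windows. The motif TTCNNNGAA, a form bound by STAT factors downstream of IL6, was found in the Cort window alone, 17 bases after the start, and in 8.3% of all windows. A match is a description of the letters in the window, and binding was not measured.

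The genes were first ordered by their level per length, in TPM, that is counts divided by the gene length of the table and scaled to the same total in each library. Cck was the highest with 1179 ± 57.9 TPM in WT and 1096 ± 43.0 TPM in GFAP-IL6 (SD of 3 mice). Sst followed with 747 ± 11.96 and 621 ± 58.2 TPM, Npy with 374 ± 10.6 and 373 ± 22.2 TPM, Pvalb with 215 ± 20.4 and 182 ± 15.4 TPM, and Vip with 118 ± 14.2 and 98.1 ± 14.6 TPM in the same order. Each of these 5 genes was above the next in every library, with no overlap of ranges over the 6 libraries. Calb2, Cort, Tac2, Reln and Crh had WT means between 16.03 and 19.7 TPM, and the ranges of neighbours in that order overlapped. Reln, with 11699 bases, had a level in CPM close to that of Npy but a level per length in this low group. The order was the same in both genotypes for the 5 highest genes and for Crh, the lowest.

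**Figure D1:**
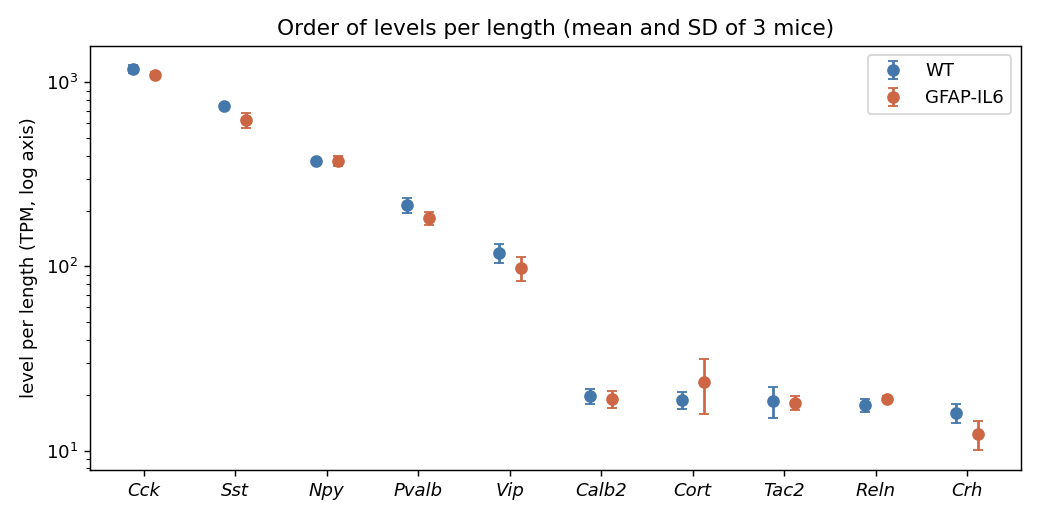
Level per length of the 10 genes in TPM on a log axis, as the mean and SD of 3 mice in WT (blue) and GFAP-IL6 (orange), ordered by the WT mean. Cck, Sst, Npy, Pvalb and Vip span 1179 to 118 TPM in WT and keep this order in both genotypes, while the other genes lie between 16.03 and 19.7 TPM in WT and between 12.3 and 23.6 TPM in GFAP-IL6.

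Sst (ENSMUSG00000004366.3, GRCm38 chromosome 16, 23889573 to 23890958, minus strand) encodes the precursor of somatostatin, an inhibitory peptide. Its level was 157, 169 and 158 CPM in WT replicates 1, 2 and 3 and 125, 117 and 141 CPM in GFAP-IL6 replicates 1, 2 and 3. No GFAP-IL6 library reached the lowest WT library. By edgeR the log2 fold change was -0.34 ± 0.087 (SE, 95% interval -0.53 to -0.15), a difference in means of -20.8%, and the adjusted p was 0.0619. DESeq2, the tool of the study, gave 0.0185. There 2.96% of 17354 genes passed in either direction, and 0.565% of the 17354 passed as lower. The study also asked for an absolute log2 fold change over 1, which Sst did not reach. Sst also passed in edgeR without WT replicate 1 (adjusted p of 0.0426) and without the low-count filter (0.0165). Over all alternatives the adjusted p ranged from 0.0165 to 0.224, and the log2 fold change stayed between -0.41 and -0.28. Without WT replicate 2 it was -0.30 (adjusted p of 0.0667 in edgeR).

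Cort (ENSMUSG00000028971.4, chromosome 4, 149125034 to 149126763, minus strand) encodes cortistatin, which binds the somatostatin receptors. Its counts were low, at 45, 84 and 78 for WT and 49, 34 and 68 for GFAP-IL6, which correspond to 3.92, 5.01 and 4.90 CPM and to 4.39, 4.49 and 7.59 CPM. GFAP-IL6 replicate 3 stood above all other libraries, and the remaining values overlapped. The edgeR estimate was 0.24 ± 0.23 on the log2 scale (SE, 95% interval -0.27 to 0.74, adjusted p = 0.587), and it became -0.06 without GFAP-IL6 replicate 3 and 0.30 without WT replicate 2. The interval thus spanned changes in either direction at this depth. The count ratio of Cort to Sst, chosen after the values were seen, was 0.0249 to 0.031 in WT and 0.035 to 0.054 in GFAP-IL6, without overlap (two-sided exact permutation test, p = 0.1, again the lowest value possible).

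Npy (ENSMUSG00000029819.6, chromosome 6, 49822710 to 49829507, plus strand) encodes neuropeptide Y, which is made by many Sst cells and by neurogliaform cells. Its level was 71.7, 80.3 and 76.8 CPM in WT and 76.3, 71.8 and 69.0 CPM in GFAP-IL6, and the groups overlapped. In edgeR the log2 fold change was -0.08 ± 0.082 (SE, 95% interval -0.25 to 0.10, adjusted p = 0.633), and without WT replicate 2 it was -0.038. The -0.34 estimated for Sst was outside this interval, but the 95% interval of Sst (-0.53 to -0.15) overlapped that of Npy. The count ratio of Npy to Sst, also chosen after the values were seen, was 0.456, 0.476 and 0.486 in WT and 0.608, 0.614 and 0.491 in GFAP-IL6. Each GFAP-IL6 value was above each WT value, with GFAP-IL6 replicate 3 only just so (two-sided exact permutation test, p = 0.1).

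Pvalb (ENSMUSG00000005716.14, chromosome 15, 78191114 to 78206400, minus strand) encodes parvalbumin, a calcium buffer of fast-spiking cells. Its level was 69.9, 86.4 and 86.0 CPM in WT and 61.2, 72.0 and 62.2 CPM in GFAP-IL6. GFAP-IL6 replicate 2 lay above WT replicate 1, so that the groups overlapped by this 1 pair. The estimate was a log2 fold change of -0.32 ± 0.10 (SE, 95% interval -0.54 to -0.09, adjusted p = 0.123 in edgeR), and without WT replicate 2 it was -0.27. Pvalb passed without WT replicate 1 (log2 fold change of -0.41, adjusted p of 0.0234) and without the low-count filter (0.043). Over the fits that each left out 1 library the adjusted p ranged from 0.0234 to 0.394.

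Calb2 (ENSMUSG00000003657.8, chromosome 8, 110137502 to 110168210, minus strand) encodes calretinin, another calcium-binding protein, found in many Vip cells. It was at 9.84, 11.4 and 9.23 CPM in WT and 9.23, 8.45 and 10.4 CPM in GFAP-IL6, with overlap. The edgeR estimate was -0.12 ± 0.15 on the log2 scale (SE, 95% interval -0.44 to 0.20, adjusted p = 0.671), and without WT replicate 2 it was -0.021.

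Vip (ENSMUSG00000019772.4, chromosome 10, 5639218 to 5647617, plus strand) encodes the peptide of the disinhibitory class. Its level was 60.4, 76.05 and 58.9 CPM in WT and 48.9, 60.2 and 45.1 CPM in GFAP-IL6. In each genotype replicate 2 was the highest, and GFAP-IL6 replicate 2 was close to WT replicates 1 and 3. By edgeR the log2 fold change was -0.35 ± 0.12 (SE, 95% interval -0.61 to -0.08, adjusted p = 0.149). Without WT replicate 2, the library with the most striatal marker RNA, the log2 fold change was -0.22 and the adjusted p 0.294. Without the low-count filter Vip passed the threshold (0.0311).

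Cck (ENSMUSG00000032532.6, chromosome 9, 121489824 to 121495694, minus strand) encodes cholecystokinin, a marker of a class of basket cells that many cortical excitatory neurons also express. Its level was 288, 311 and 274 CPM in WT and 263, 262 and 247 CPM in GFAP-IL6. The groups did not overlap, although the highest GFAP-IL6 library was close to the lowest WT library. The estimate was a log2 fold change of -0.18 ± 0.079 (SE, 95% interval -0.35 to -0.01, adjusted p = 0.229 in edgeR), and without WT replicate 2 it was -0.13. Sst and Cck were the 2 of 10 genes whose GFAP-IL6 libraries all lay below the WT libraries, as was the case for 12.7% of all genes tested.

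Crh (ENSMUSG00000049796.4, chromosome 3, 19693401 to 19695396, minus strand) encodes corticotropin-releasing hormone, the stress peptide, which in cortex is made by interneurons. With 74, 147 and 123 counts for WT and 49, 49 and 52 for GFAP-IL6, its level was 6.45, 8.77 and 7.72 CPM and 4.39, 6.47 and 5.80 CPM. GFAP-IL6 replicate 2 was marginally above WT replicate 1, and the other pairs were separated. Its log2 fold change of -0.49 ± 0.19 (SE, 95% interval -0.91 to -0.07) was the largest of the 10 genes in size, and the adjusted p was 0.186 in edgeR and 0.359 in DESeq2. Without WT replicate 2 it was -0.38 (adjusted p of 0.367 in edgeR).

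Tac2 (ENSMUSG00000025400.8, chromosome 10, 127724478 to 127731768, plus strand) encodes neurokinin B. Its level was 6.45, 6.74 and 4.58 CPM in WT and 5.56, 5.94 and 5.02 CPM in GFAP-IL6, so that the GFAP-IL6 libraries lay within the range of WT. In edgeR the log2 fold change was -0.10 ± 0.20 (SE, 95% interval -0.53 to 0.32, adjusted p = 0.798), and it was 0.02 without WT replicate 2.

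Reln (ENSMUSG00000042453.12, chromosome 5, 21884454 to 22344702, minus strand) encodes reelin, which is secreted in the adult cortex by neurogliaform and some Sst cells. Its level was 79.3, 72.05 and 72.7 CPM in WT and 79.1, 75.3 and 74.7 CPM in GFAP-IL6, with full overlap. The edgeR estimate was 0.03 ± 0.080 on the log2 scale (SE, 95% interval -0.14 to 0.21, adjusted p = 0.84), and without WT replicate 2 it was 0.0090. An exon of Gm10475, an antisense gene, overlaps an exon of Reln, and the methods do not state whether strand was used in counting. Gm10475 held 121 counts over the WT libraries and 86 over the GFAP-IL6 libraries. These are raw sums, and the WT libraries were deeper, so they do not compare its level between genotypes. No exon of the other 9 genes overlapped another gene in GENCODE M21.

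**Figure D2:**
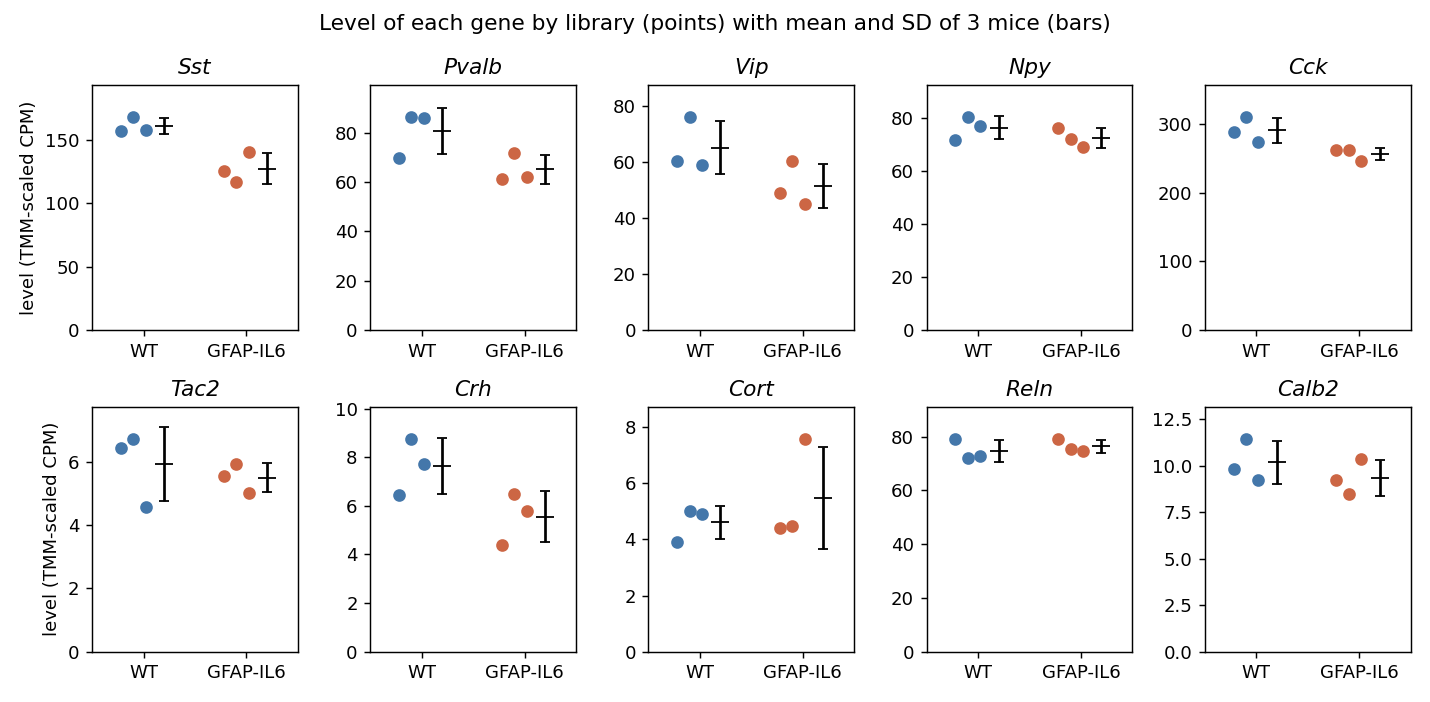
Level of each of the 10 genes in TMM-scaled CPM, 1 point for each library in WT (blue) and GFAP-IL6 (orange), with the mean and SD of 3 mice as black bars and each axis starting at 0. The GFAP-IL6 points of Sst and Cck lie below all WT points, those of Pvalb, Vip and Crh overlap by replicate 2, and those of Npy, Reln, Calb2, Tac2 and Cort overlap the WT points widely.

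**Figure D3:**
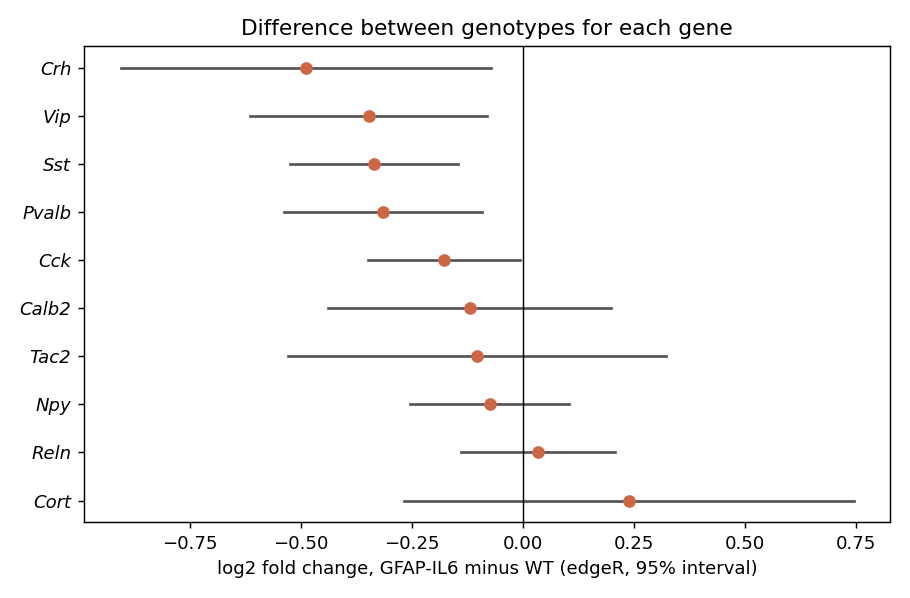
Log2 fold change of GFAP-IL6 over WT by edgeR (points) with its 95% interval (lines), ordered by size. The intervals of Crh, Vip, Sst, Pvalb and Cck lie below 0 before adjustment for the 15341 genes tested, and those of the other 5 genes include 0.

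Counts of these genes were next set against lineage genes measured in the same library, again chosen after the values were seen. The ratio of Sst to Lhx6, a transcription factor of both Sst and Pvalb cells, was 8.05 ± 1.08 in WT and 6.83 ± 1.46 in GFAP-IL6 (SD of 3 mice each, two-sided exact permutation test, p = 0.4). The ratio of Pvalb to Lhx6 was 4.03 ± 0.74 and 3.44 ± 0.25 (exact permutation test, p = 0.3). Vip to Adarb2, a gene of the Vip and neurogliaform lineages, gave 3.18 ± 0.779 and 2.26 ± 0.497 (exact permutation test, p = 0.3). All 3 ratios had a lower mean in GFAP-IL6, with log2 differences of -0.25, -0.22 and -0.49, but the values of the groups overlapped in each. With 3 against 3 libraries this test cannot give a p under 0.1.

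The receptors were then examined, as the partners through which the peptides and reelin act. Here and below, paired values are means and SD of 3 mice, in WT and then in GFAP-IL6. Of 21 genes on this list 16 passed the filter, and 0 passed an adjusted p of 0.05 by edgeR. At an unadjusted p under 0.05, 2 were higher and 1 lower. Of all 15341 genes tested, 3139 had such a p in either direction, and 9.37% had it as lower. The median log2 fold change was 0.09. Crhbp, a secreted protein that binds CRH and is itself a marker of Sst cells, was at 26.4, 30.3 and 24.6 CPM in WT and 21.1, 19.8 and 23.3 CPM in GFAP-IL6. The groups did not overlap, as for 12.7% of all genes tested in this direction, and edgeR gave a log2 fold change of -0.34 ± 0.11 (SE, adjusted p = 0.128). Sstr4, a somatostatin receptor, was at 6.74 ± 2.24 and 9.94 ± 0.866 CPM in WT and GFAP-IL6, a log2 fold change of 0.58 (adjusted p = 0.181 in edgeR). Lrp8, a reelin receptor, was at 47.8 ± 12.6 and 60.5 ± 4.56 CPM (adjusted p of 0.233 by edgeR). WT replicate 2 was the lowest library for both Sstr4 and Lrp8, with 4.18 and 33.7 CPM. Vipr2, Tacr3, Crhr2, Sstr5 and Cckar did not pass the filter, with at most 14 counts in any library.

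Among 11 genes for the processing and storage of neuropeptides, 1 passed the threshold, as lower, and 0 as higher. It was Scg5, which encodes 7B2, the chaperone of the prohormone convertase PC2. Its level was 208, 246 and 197 CPM in WT and 164, 169 and 148 CPM in GFAP-IL6. Scg5 fell by 0.43 ± 0.097 (SE) on the log2 scale, with groups that did not overlap and an edgeR adjusted p of 0.0315. Scg5 did not pass without any 1 of the GFAP-IL6 libraries (adjusted p of 0.116, 0.0845 and 0.206 without replicates 1, 2 and 3). Of the other 10 genes, 8 had a lower and 2 a higher estimate, and the median of all 11 was -0.10. These genes are expressed by neurons in general and are not particular to interneurons.

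Transcription factors of the interneuron lineages were examined as markers that do not depend on a peptide. Of 17 lineage factors, 1 passed the threshold as higher and 0 as lower, with a median log2 fold change of -0.02. At an unadjusted p under 0.05, 1 factor was lower, where 9.37% of all genes tested were. It was Nr2f1 (86.4 ± 5.49 and 71.8 ± 3.37 CPM, log2 fold change of -0.27, adjusted p of 0.111 in edgeR). Of 5 microglial genes on their own list 4 passed as higher, namely Cx3cr1, Tmem119, Csf1r and Aif1 (log2 fold changes of 0.63, 0.81, 0.87 and 0.90 by edgeR). P2ry12, also on this list, had a lower estimate of -0.27 (adjusted p = 0.291 in edgeR). The summed level of the 5 microglial genes was 215 to 256 CPM in WT and 352 to 420 CPM in GFAP-IL6. Their part in the results on neuronal genes was not tested. Lhx6 was at 21.3, 18.1 and 21.2 CPM in WT and 19.0, 21.3 and 16.8 CPM in GFAP-IL6.

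The 4 genes of GABA synthesis and transport had estimates between -0.22 and -0.05, all lower, and 0 passed the threshold by edgeR. At an unadjusted p under 0.05 there were 2, where 9.37% of all genes tested were lower. Gad1, the main GABA-synthesising enzyme, was at 403 ± 7.19 and 346 ± 33.3 CPM (log2 fold change of -0.22 ± 0.085 SE, adjusted p = 0.18 in edgeR). Gad2 was at 174 ± 7.62 and 155 ± 6.30 CPM (adjusted p of 0.238 by edgeR). For both enzymes the GFAP-IL6 libraries all lay below the WT libraries, as was the case for 12.7% of all genes tested. Slc32a1, the vesicular GABA transporter, had an estimate of -0.06 (adjusted p = 0.736 in edgeR).

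Other markers of interneuron classes numbered 19, of which 17 passed the filter and 0 passed the threshold by edgeR. Estimates were lower for 13 and higher for 4, with a median log2 fold change of -0.20. At an unadjusted p under 0.05 there were 3 genes, all lower, where 9.37% of all genes tested were lower. These 3 were Calb1, which encodes calbindin (158 ± 21.7 and 124 ± 18.1 CPM, adjusted p of 0.134), Htr3a, the serotonin receptor of the Vip and neurogliaform group (6.41 ± 0.602 and 4.43 ± 1.33 CPM, adjusted p of 0.212), and Id2 (124 ± 17.6 and 104 ± 6.37 CPM, adjusted p of 0.201, all by edgeR). WT replicate 2 was the highest library for each of these 3 genes, with 183.3, 6.80 and 143.3 CPM. The next highest was WT replicate 1, with 147.5, 6.71 and 121.2 CPM. Penk and Tac1 were looked at after their values were seen. Penk, an opioid peptide gene of both Vip cells and striatal neurons, was at 88.9 CPM in WT replicate 2 and between 33.4 and 44.6 CPM in the other libraries. The same library was the highest for Tac1, with 26.5 CPM against 11.2 to 15.1 CPM.

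**Figure D4:**
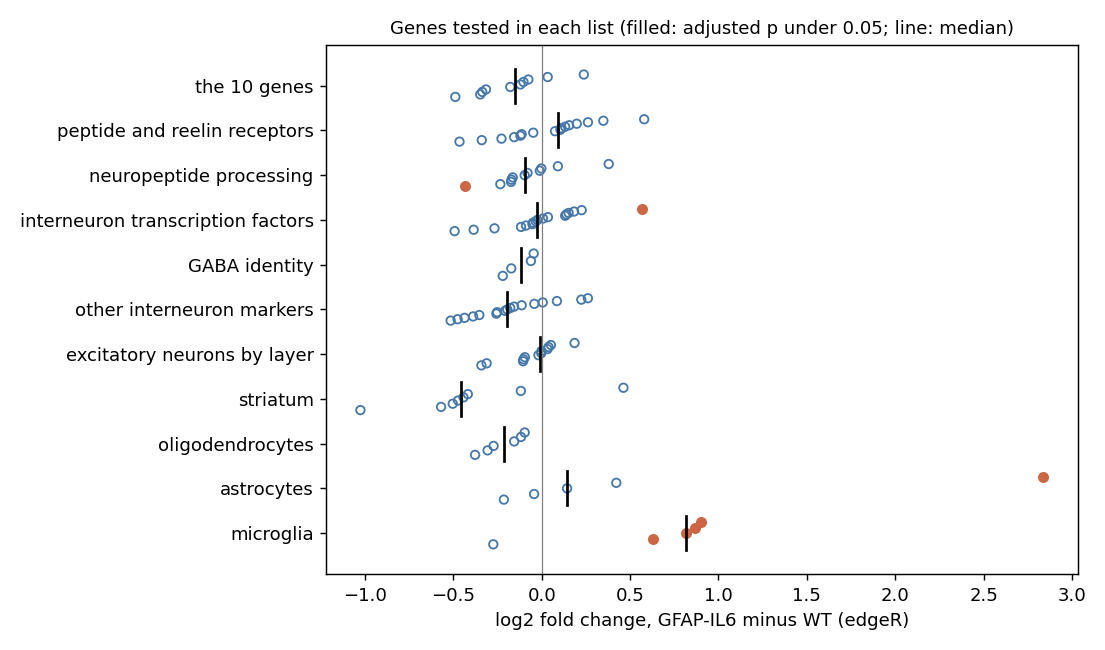
Log2 fold change of GFAP-IL6 over WT by edgeR for every gene that passed the filter in each list shown, with filled orange points past an adjusted p of 0.05 and a black line at the median. The lists of choroid plexus genes and of other neuropeptide precursors are not drawn. The 10 interneuron genes (top) have a median of -0.15 and no filled point, the neuronal lists have 1 filled point on each side of 0, the lower being Scg5, and those of the glial lists are Gfap and 4 microglial genes.

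Markers of other cells were measured beside these results. Of 12 genes of cortical excitatory neurons, 0 passed by edgeR, with a median log2 fold change of -0.01. At an unadjusted p under 0.05, 1 gene was lower, where 9.37% of all genes tested were. It was Rorb of layer 4 (49.9 ± 6.60 and 39.3 ± 3.86 CPM, adjusted p of 0.126 in edgeR). Next by p were Foxp2 and Fezf2 of the deep layers, with log2 fold changes of -0.31 and 0.19 (adjusted p of 0.405 and 0.458 in edgeR). Foxp2 was at 16.4 CPM in WT replicate 2 and at 9.14 to 10.3 CPM in the other libraries. Of 8 striatal genes 0 passed by edgeR, with a median of -0.46, while DESeq2 gave Ppp1r1b an adjusted p of 0.0411. Ppp1r1b was at 100.3 ± 20.07 and 74.02 ± 9.78 CPM, and Pde10a had a log2 fold change of 0.46 (adjusted p of 0.107 and 0.209 by edgeR). Of 5 choroid plexus genes 4 passed the filter and 0 the threshold, with Ttr at 550.3 CPM in WT replicate 3 and 1.31 to 47.3 CPM elsewhere, and with adjusted p of 0.209, 0.22 and 0.223 by edgeR for Ttr, Kl and Kcnj13. Of 6 oligodendrocyte genes 0 passed, with a median of -0.21. Their summed level was 3225 to 5940 CPM in WT, lowest in replicate 1, and 3246 to 5068 CPM in GFAP-IL6. Mog and Cnp had adjusted p of 0.349 and 0.442 by edgeR. Of 5 astrocyte genes 1, Gfap, passed as higher (adjusted p of 5.49e-06 by edgeR).

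Similarity over the 6 libraries was described by the Pearson coefficient of log2 CPM, without a test, since libraries share depth and dissection. Pvalb was most alike to Crh among the 10 genes, with a coefficient of 0.921, followed by Vip with Cck at 0.907. Reln ran opposite to Crh and Pvalb, with coefficients of -0.779 and -0.739. Among 15314 other genes, the one most alike was Chic2 for Sst (0.992), Tmx3 for Pvalb (0.994), Psmd8 for Vip (0.998), Rps6kb1 for Npy (0.997) and Hey1 for Cck (0.997). It was Glt8d2 for Tac2 (0.992), Hacd3 for Crh (0.996), Nfia for Cort (0.988), Egr2 for Reln (0.990) and Sergef for Calb2 (0.996). With 6 libraries such values are common, as between 22 and 264 genes had a coefficient over 0.95 with each of the 10.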

How the data were processed

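Raw counts per gene were deposited by the authors for 6 TruSeq libraries. Per the study's methods, reads were aligned to mm10 with STAR (version 2.4, also in the submitters' processing notes) and counted over GENCODE genes with featureCounts, and strand use is not given in the sources used here. The processing notes name a human build, which does not go with the mouse identifiers. Gene lengths came from the deposited table and served for TPM. Groups and replicate numbers came from the sample titles. The genes and lists were chosen with earlier results of these data known. All genes were tested with edgeR 4.0.16 (R 4.3.3), quasi-likelihood F-test, TMM, filterByExpr, Benjamini-Hochberg adjustment over 15341 genes, group only. A call is an adjusted p under 0.05. Standard errors and 95% intervals were derived from the F statistic. DESeq2 1.42.0 and limma-voom (limma 3.58.1) were alternatives, beside other scalings and filters, thinning, a replicate block and leaving out each library. Named genes were all 10, from each list those called or else up to 3 with the smallest p, and the gene most alike to each of the 10. Slc17a7, Lhx6, Nr2f1, Penk, Tac1, Chodl, Adcyap1 and Pnoc were named outside this rule after their values were seen. Some genes that the rule names are not reported here. Positions are from GENCODE M21 (GRCm38, the same assembly as mm10). On simulated counts over 15319 genes, the edgeR fit of GFAP-IL6 against WT recovered 86% of genes changed 2-fold and 100% of those changed 4-fold, with 3.63% of calls false. Smaller changes were not simulated, so recovery is not known for changes like those estimated for the 10 genes (log2 fold changes of -0.49 to 0.24). No 2 libraries agreed within sampling noise (chi-square per degree of freedom of 2.23 to 20.1). Counts of 3 in a library correspond to 0.178 to 0.397 CPM, and such floors cover counting error only.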

Additional observations from a re-analysis of the deposited data

How the results depend on the processing

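The number of the 10 genes past the threshold was 0 in 11 of 16 alternatives. It was 3 without the low-count filter (Sst, Pvalb and Vip; 5.1% of all genes passed), 1 with DESeq2 and 1 with its prior (Sst), and 2 with the replicate block. Leaving out 1 library gave 0 to 2, the 2 being Sst and Pvalb without WT replicate 1, where 6.83% of all genes passed. The median log2 fold change of the 10 genes was between -0.24 (without WT replicate 3) and -0.083 (without WT replicate 2) over these fits. Genes lower at an unadjusted p under 0.05 numbered 3 without WT replicate 2 (Sst, Pvalb and Vip), 3 without GFAP-IL6 replicate 3 (Sst, Pvalb and Crh) and 1 without GFAP-IL6 replicate 1 (Sst). The sign turned for Tac2 without WT replicate 2 (0.016, from a range of -0.27 to 0.016 without 1 library) and for Cort without GFAP-IL6 replicate 3 (-0.062, from a range of -0.062 to 0.39), and it was kept in every alternative by the other 8 genes. Over all genes, 439 passed, 1154 without the low-count filter, 750 with the replicate block and 187 to 1061 without 1 library, and genes passing as lower ranged from 1 to 369 against 32. Of the genes on the other lists 7 passed, 20 without the filter and 4 to 12 without 1 library. The cause of these shifts was not tested.

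The replicate numbers of the titles were checked for pairing. Same-numbered libraries had deviations from their group means correlated at 0.089, 0.0131 and 0.011, against -0.0752 to 0.0528 for the other pairs. Correlations this small cannot show whether the numbers pair the mice, and the main fit used group only. With the replicate block Sst had an adjusted p of 0.0475 and Vip one of 0.0291 by edgeR, and no other of the 10 genes passed. Depth limits Cort, Tac2, Crh and Calb2 most, whose libraries held 34 to 192 counts.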

Other observations

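A further list of 33 precursors of other neuropeptides and related secreted peptides was drawn up after the data were seen. Of these, 13 passed the low-count filter, and 0 passed an adjusted p of 0.05 by edgeR, with 12 estimates lower and 1 higher and a median log2 fold change of -0.21. At an unadjusted p under 0.05 there was 1 lower and 1 higher gene, beside 3139 of all 15341 genes tested in either direction. Edn3, which encodes endothelin 3, was at 5.93 ± 0.345 CPM in WT and 2.88 ± 1.16 CPM in GFAP-IL6 (SD of 3 mice each). Its log2 fold change was -1.03 ± 0.26 (SE), and the adjusted p was 0.0531 in edgeR and 0.0355 in DESeq2. Edn1, which encodes endothelin 1, was at 1.91 ± 0.319 and 2.86 ± 0.319 CPM (adjusted p = 0.219 in edgeR). Nppc, the precursor of C-type natriuretic peptide, had a log2 fold change of -0.61 (adjusted p = 0.26 in edgeR). Adcyap1, the precursor of PACAP, a relative of VIP, had one of -0.12 (adjusted p = 0.62 in edgeR), and Pnoc, the nociceptin precursor of some interneurons, had one of -0.29 (adjusted p = 0.425 in edgeR).

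Chodl, which marks long-range projecting Sst cells, did not pass the low-count filter with 6, 23 and 13 counts for WT and 4, 6 and 3 for GFAP-IL6, the most being in WT replicate 2. Scaled for depth these were 0.52, 1.37 and 0.82 CPM in WT and 0.36, 0.79 and 0.33 CPM in GFAP-IL6, and the groups overlapped.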
